A study of Mus musculus with 7 samples.

Results

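Chemokines and their receptors were examined in bulk RNA-Seq of the mouse extrahepatic bile duct (EHBD) collected 48 hours after the duct was ligated (BDL) so that bile could not drain, or after a sham operation. The members were all protein-coding genes of the deposited count table whose symbol is that of a numbered chemokine ligand (Ccl, Cxcl, Xcl or Cx3cl) or of a numbered receptor (Ccr, Cxcr, Xcr, Cx3cr or Ackr). This gave 63 of 56065 genes, made up of 40 ligands, 19 receptors and 4 atypical receptors. The BDL group held 4 libraries (2 male and 2 female) and the sham group held 3 (2 male and 1 female). All animals were adult wild-type mice, given as C57BL/6 in the labels and as C57BL/6J in the study's methods. Sham animals also had abdominal surgery, and the ligature of the BDL animals sat at the duodenal end of the duct. Each library was made from the whole duct and not from sorted cells. The study counts its 48-hour samples in mice, though the labels do not tie each library to its own animal, and the p-values describe the spread between libraries.

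Chemokines are small secreted proteins that guide leukocytes through tissue by binding G protein-coupled receptors. Inflammatory chemokines are induced by injury and draw in neutrophils and monocytes, homeostatic chemokines are made constantly and position lymphocytes and dendritic cells, and a further group is switched on by interferon and attracts activated T cells. Atypical receptors bind chemokines without G protein signalling and clear them from the tissue. The neutrophil-attracting class was taken here as Cxcl1, Cxcl2, Cxcl3, Cxcl5, Cxcl15 and the receptors Cxcr1 and Cxcr2. The homeostatic lymphoid class was Ccl19, the Ccl21 copies, Cxcl12, Cxcl13 and the receptors Ccr7, Cxcr4 and Cxcr5, and the interferon-driven class was Cxcl9, Cxcl10, Cxcl11 and their receptor Cxcr3.

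The libraries held between 48882420 and 61291821 counts. Levels are given as CPM, counts scaled to library depth. The 8 markers of biliary epithelium summed to between 8320 and 9800 CPM in BDL and between 4230 and 5440 CPM in sham. The 12 markers of pancreatic acinar cells took between 0.00239% and 10.6% of the counts in BDL libraries and between 7.34% and 31.5% in sham libraries, and the 8 hepatocyte markers took between 0.00859% and 2.38% in BDL and between 0.05% and 0.148% in sham. Hepatocyte transcripts were high in BDL replicates 1 and 4 and acinar transcripts in BDL replicates 2 and 3. The 6 adipocyte markers summed to between 2.79 and 77.1 CPM in BDL and between 128 and 649 CPM in sham. The 6 erythroid markers summed to between 110 and 288 CPM in BDL and between 344 and 1500 CPM in sham. Mesothelium markers went both ways (1 higher, 4 lower in the test), and the sums of blood endothelium markers overlapped. The part of neighbouring tissue and blood in the chemokine levels was not tested. The 10 neutrophil markers summed to between 32.5 and 154 CPM in BDL and between 8.99 and 30.3 CPM in sham, with BDL replicate 4 highest. The monocyte and macrophage, dendritic cell, T and NK cell and B and plasma cell lists were each lower in all BDL libraries than in any sham library, as the plot of marker levels shows. In bulk tissue, fewer cells of a type and less RNA per cell cannot be told apart.

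**Figure D1:**
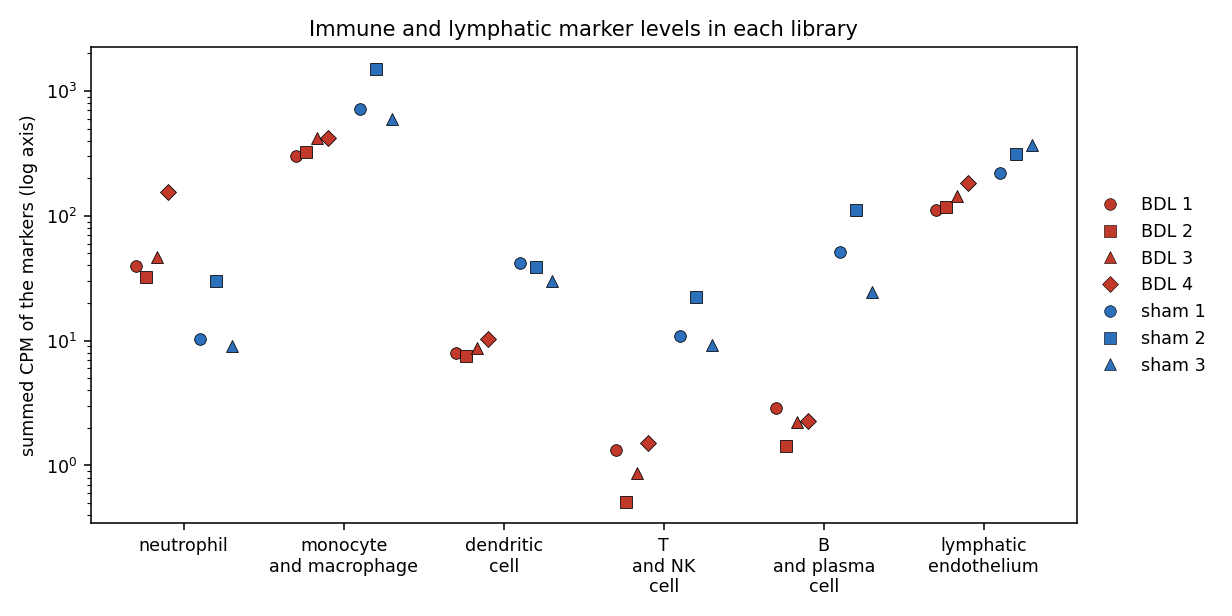
Summed CPM (log axis) of the marker genes of 6 cell types in each library, with BDL libraries in red at the left of each pair and sham libraries in blue at the right. Neutrophil markers lay between 32.5 and 154 CPM in BDL and between 8.99 and 30.3 CPM in sham, whereas the T and NK cell markers lay between 0.513 and 1.51 CPM in BDL and between 9.23 and 22.3 CPM in sham.

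The comparison of BDL with sham asked how duct obstruction altered the chemokine transcripts. Most members that passed the test were lower in BDL, and the members that were higher were mainly those that attract neutrophils and monocytes. Of the 63 members, 58 had at least 10 counts and were tested over 25209 genes with edgeR's quasi-likelihood test at an adjusted p of 0.05. There were 6 members that rose (Ccl2, Cxcl2, Cxcl3, Cxcl5, Cxcl17 and Cxcr2), 20 that fell and 32 that did not pass. The corresponding shares over all tested genes were 11.8% higher and 11.0% lower. The share of members that rose was thus near that of all genes, and the share that fell was above it. These all-gene shares are also the background for the counts of each gene list given here. The median log2 fold change of the 58 members was -1.44, against -0.01 over all tested genes, and it was the same with members at 0 counts set at their bound. In 8 members every BDL library was above every sham library, and in 22 every sham library was above every BDL library, against 18.7% and 18.0% of all tested genes. Of 16 tested receptors 1 rose and 9 fell, with a median of -2.38, and of 38 tested ligands 5 rose and 10 fell, with a median of -1.06. The 5 untested members were Ccl1, Ccl26, Ccr1l1, Ccr4 and Cxcr1, and Ccl26 had no count in any library. Low members were measured with less precision, and 9 ligands and 8 receptors had a mean under 1 CPM in both groups. There were 9 called members that passed without each library in turn, namely Ackr4, Ccl5, Ccl8, Ccl21a, Ccr2, Cxcl3, Cxcl5, Cxcr6 and Xcr1. Leaving out sham replicate 1 gave 2 members that rose and leaving out sham replicate 3 gave 3. The members that fell numbered 12, 11 and 13 when BDL replicate 1, BDL replicate 2 or sham replicate 1 was left out. Calls over all tested genes also became fewer in these fits. Genes that rose went from 2976 to 2094 without sham replicate 1 and to 1743 without sham replicate 3. Genes that fell went from 2782 to 1431, 1588 and 1642 without BDL replicate 1, BDL replicate 2 and sham replicate 1.

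**Figure D2:**
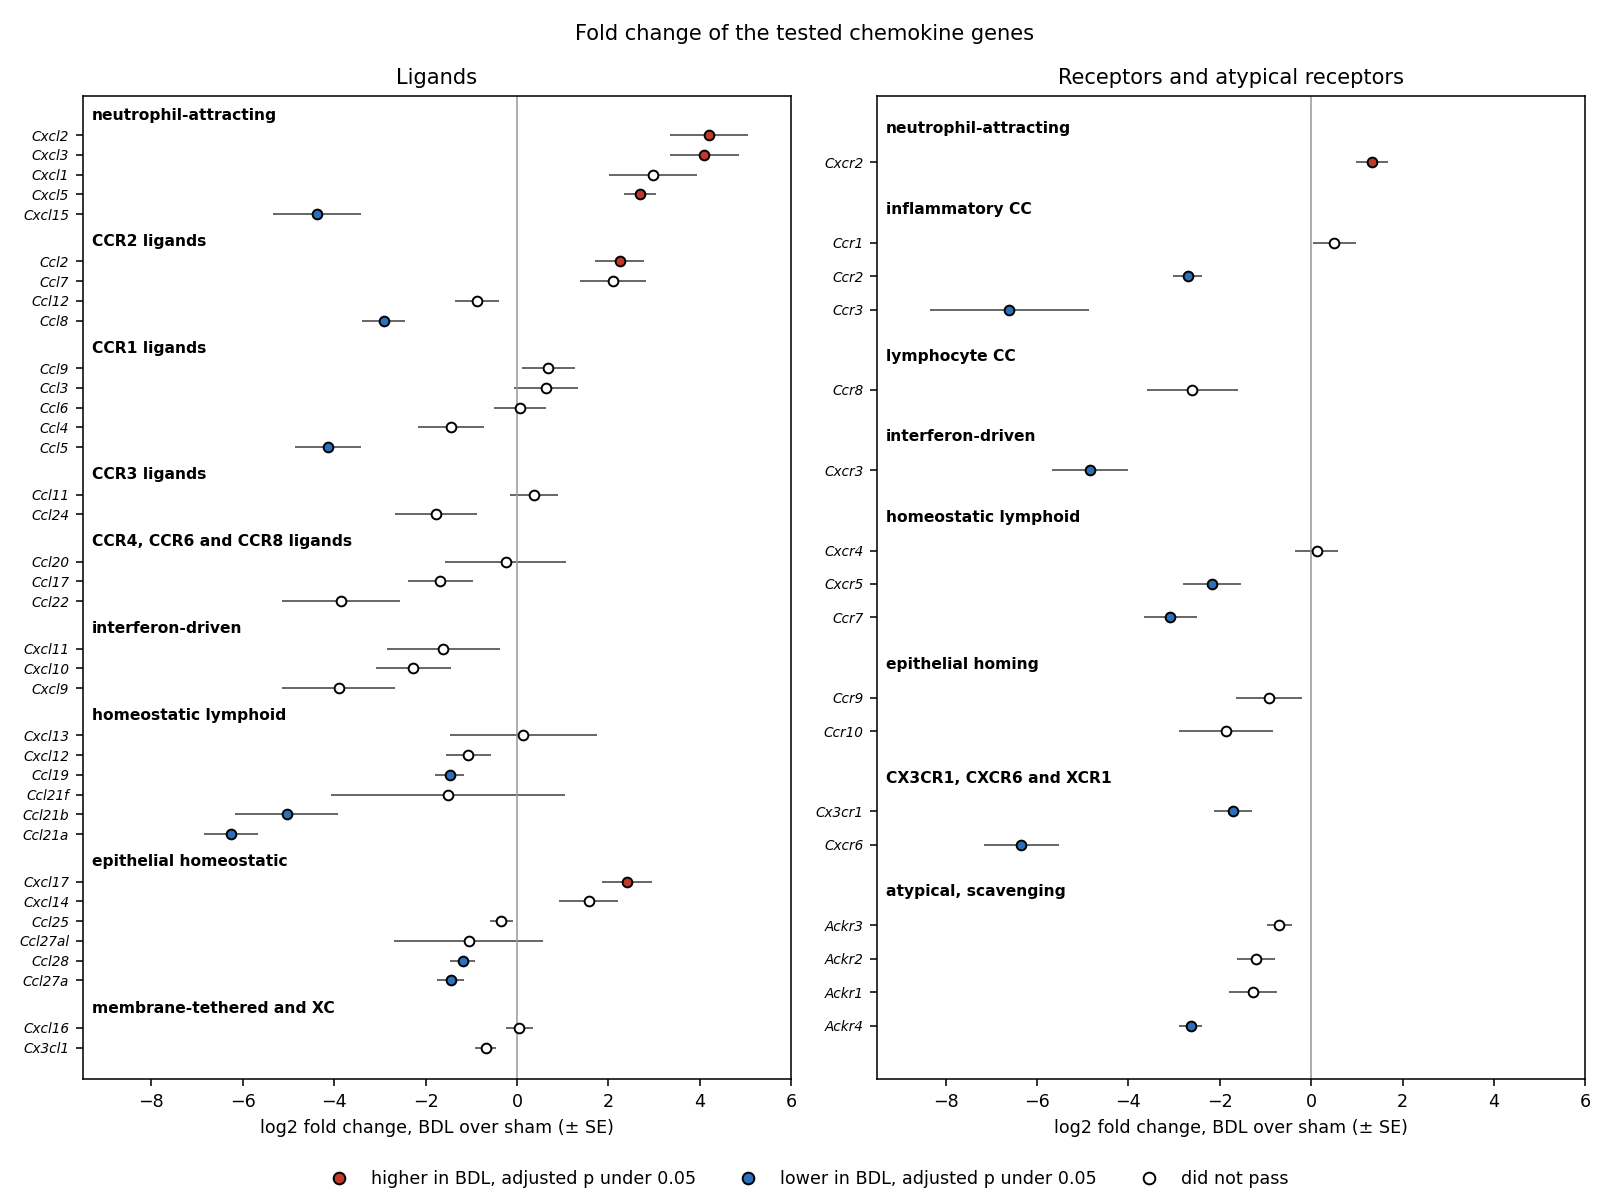
Log2 fold change of BDL over sham with its standard error for the tested members, ligands at the left and receptors at the right, with filled points for members that passed the test at an adjusted p of 0.05. Red points at the right of 0 are mainly neutrophil-attracting genes, and blue points at the left include Ccr2, Ccr7, Cxcr3 and Cxcr6. Ccl21d, Xcl1, Xcr1 and Ccr6, with 0 to 2 counts in BDL, are not drawn.

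The make-up of the ligand transcripts differed between the groups. To compare ligands with each other, each level was divided by the length of the gene's exons in kilobases (CPM per kb). Neutrophil-attracting ligands made up 10.5%, 12.6%, 6.1% and 11.9% of the summed ligand level in BDL replicates 1 to 4, against 0.935%, 0.926% and 1.64% in sham replicates 1 to 3. Homeostatic lymphoid ligands made up 16.5%, 6.25%, 14.2% and 14.9% in BDL and 40.4%, 40.1% and 47.6% in sham. Neither class overlapped between the groups. The summed level of all ligands did overlap, at 233 to 529 CPM per kb in BDL and 335 to 733 CPM per kb in sham. In BDL the highest ligand was Ccl6, a myeloid chemokine of the CCR1 group, at 107 ± 55.0 CPM per kb (SD, n = 4), followed by the eosinophil attractant Ccl11 at 60.3 ± 28.6. In sham the order was Ccl21a at 91.2 ± 25.8, Ccl6 at 82.4 ± 55.5 and Ccl8 at 73.0 ± 45.1 CPM per kb (SD, n = 3), neighbours that do not differ beyond their spread.

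**Figure D3:**
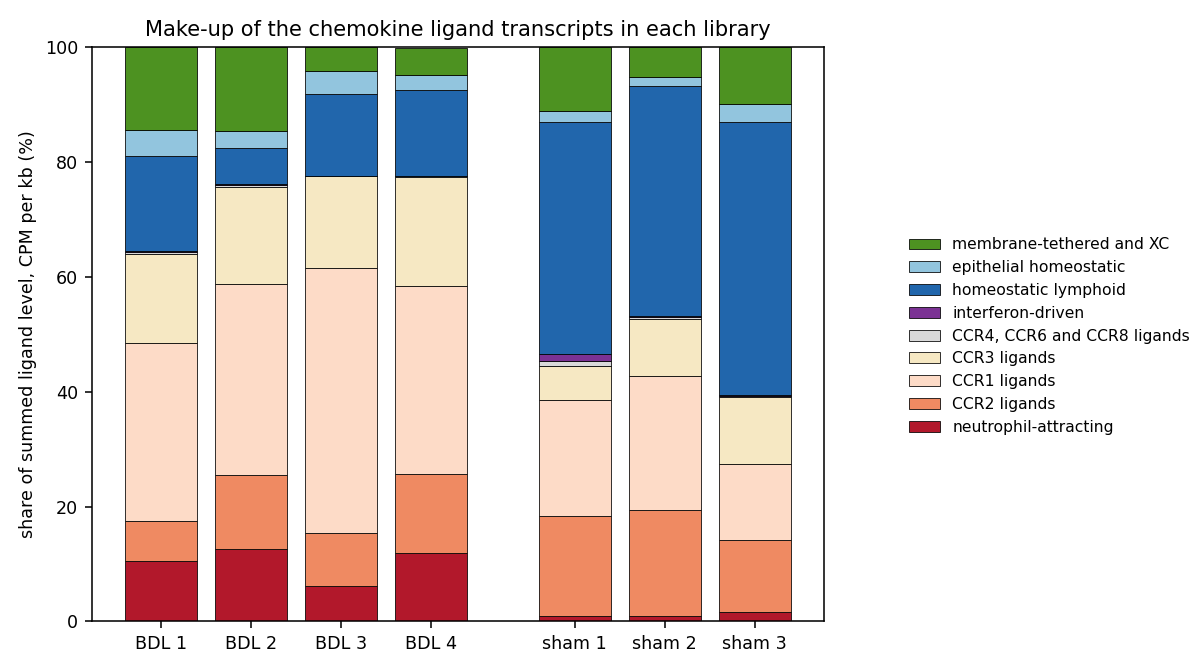
Share of each ligand class in the summed ligand level (CPM per kb of exon, percent) of each library, BDL libraries at the left and sham libraries at the right. The neutrophil-attracting share at the foot of the bars ran from 6.1% to 12.6% in BDL and from 0.926% to 1.64% in sham, and the homeostatic lymphoid share ran from 6.25% to 16.5% in BDL and from 40.1% to 47.6% in sham.

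Neutrophil-attracting ligands lie together on chromosome 5, and CXCL1, CXCL2, CXCL3 and CXCL5 act through CXCR2. Promoter sequence was found in the RefSeq table for 46 of the 63 members. The kappaB core GGAATTTCC, a letter pattern bound by the inflammatory factor NF-kappaB, was searched on both strands in the 250 bases before the start site. It was present in 5 of these 46 promoters, those of Cxcl1, Cxcl2, Cxcl3, Cxcl10 and Ccr3, and in 94 of 32851 promoters in the table (0.286%). The promoters of Cxcl1, Cxcl2 and Cxcl3 are shown because all carry the core on the plus strand within 100 bases of the start site. Of the other neutrophil-attracting ligands, Cxcl5 was not among the 46 promoters and Cxcl15 was not among the 5 with the core. Each run is the 120 bases before the start site on the plus strand (GRCm38.p6), with the core in capitals, at chr5:90891125-90891244 for Cxcl1, chr5:90903779-90903898 for Cxcl2 and chr5:90785981-90786100 for Cxcl3. A match describes the letters and is no evidence of binding in these ducts.
Cxcl1: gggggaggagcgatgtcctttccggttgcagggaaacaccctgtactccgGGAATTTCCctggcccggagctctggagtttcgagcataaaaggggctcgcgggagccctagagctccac
Cxcl2: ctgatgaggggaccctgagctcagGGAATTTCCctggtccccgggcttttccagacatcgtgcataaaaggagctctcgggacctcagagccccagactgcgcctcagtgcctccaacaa
Cxcl3: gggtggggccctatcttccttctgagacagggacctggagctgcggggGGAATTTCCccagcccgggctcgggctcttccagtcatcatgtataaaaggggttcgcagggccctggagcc

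The neutrophil-attracting class had 6 tested members, of which 4 rose and 1 fell. The number that rose was 2 when sham replicate 1 or sham replicate 2 was left out. Their median log2 fold change was 2.84, against -0.01 over all tested genes. Cxcl2, an early signal released by macrophages and stroma, was at 2.98, 1.61, 2.30 and 14.8 CPM in BDL replicates 1 to 4, against 0.250, 0.109 and 0.268 CPM in sham replicates 1 to 3. All BDL libraries lay above all sham libraries, and BDL replicate 4 was the highest. The log2 fold change was 4.2 (SE 0.85, adjusted p = 0.0129), and Cxcl2 no longer passed without sham replicate 1 or sham replicate 2 (adjusted p = 0.0646 and 0.0563, range over the alternatives 1.19e-08 to 0.0646). Cxcl3 was at 0.918, 0.862, 6.63 and 13.5 CPM in BDL and at 0.193, 0.0622 and 0.161 CPM in sham. BDL replicates 3 and 4 were several times above BDL replicates 1 and 2, and all were above sham. Cxcl5, which epithelial cells release in inflamed mucosa, was the most abundant of the class at 39.0, 50.0, 43.2 and 74.2 CPM in BDL, against 5.47, 10.7 and 7.81 CPM in sham. Its BDL mean was 6.46 times the sham mean, and all BDL libraries lay above all sham libraries. Reads of Cxcl5 may include those of the antisense gene Gm72413, whose exons cover 27.6% of its own and which the library kit cannot separate.

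Cxcl1, the mouse counterpart of the human growth-regulated chemokines, was at 5.13, 3.78, 2.78 and 23.9 CPM in BDL and at 0.462, 0.808 and 1.40 CPM in sham. Every BDL library was above every sham library, but BDL replicate 4 was far above the other BDL libraries and the test was not passed (log2 fold change 2.97, SE 0.96, adjusted p = 0.0644, range over the alternatives 0.000155 to 0.198). Without BDL replicate 4 the log2 fold change of Cxcl1 was 2.19 and it passed (adjusted p = 0.0112). The other members without that library were at 3.47 for Cxcl2, 3.79 for Cxcl3 and 2.50 for Cxcl5, and all of them passed. BDL replicate 4 also had the highest summed neutrophil markers (154 CPM) and the highest hepatocyte share (2.38%), and their part in its levels was not tested.

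Cxcl15, known as lungkine and made mainly by lung epithelium, moved against the rest of its class. It was at 0.0602, 0.0183, 0.132 and 0 CPM in BDL, against 0.944, 1.40 and 0.993 CPM in sham. The log2 fold change was -4.38 (SE 0.96, adjusted p = 0.0175), on 13 counts in the BDL libraries together and 176 in sham. Cxcl15 missed the threshold without BDL replicate 1, BDL replicate 2, sham replicate 1 or sham replicate 2 (adjusted p = 0.0666, 0.0586, 0.07 and 0.0528, range over the alternatives 1.27e-05 to 0.07).

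Neutrophils sense CXCL1, CXCL2, CXCL3 and CXCL5 through the receptor Cxcr2. Cxcr2 was at 2.14, 2.18, 2.60 and 2.69 CPM in BDL, against 1.35, 0.901 and 0.537 CPM in sham. It rose by 1.33 on the log2 scale (SE 0.35, adjusted p = 0.0341) with no overlap between the groups, but missed the threshold when BDL replicate 1, BDL replicate 2, sham replicate 1, sham replicate 2 or sham replicate 3 was left out (adjusted p = 0.112, 0.105, 0.0587, 0.0643 and 0.0834, range 0.00248 to 0.133). Cxcr1 had 1 count in BDL and 0 in sham. Of 9 tested neutrophil markers, a list that holds Cxcr2 itself, edgeR called 4 higher (Cxcr2, S100a8, S100a9 and Mmp8) and 0 lower, with 1 lower at an unadjusted p under 0.05 and 1 called lower by limma-voom but 0 by DESeq2. S100a8 and S100a9 rose by 3.0 (SE 0.77 and 0.72) and the collagenase Mmp8 by 4.78 (SE 0.75) on the log2 scale. The granulocyte receptor gene Csf3r was at 2.16 to 3.34 CPM in BDL and 2.18 to 3.14 CPM in sham. The elastase gene Elane was at 0 to 0.0452 CPM in BDL and 0.116 to 0.404 CPM in sham (-2.97, SE 0.99, adjusted p = 0.0702), and the surface gene Ly6g was at 0.0165 to 0.120 CPM in BDL and 0.0268 to 0.077 CPM in sham. Ppbp and Pf4, platelet chemokines whose symbols lie outside the naming pattern, did not pass. Ppbp was at 3.30 to 24.6 CPM in BDL and 0.537 to 3.15 CPM in sham.

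**Figure D4:**
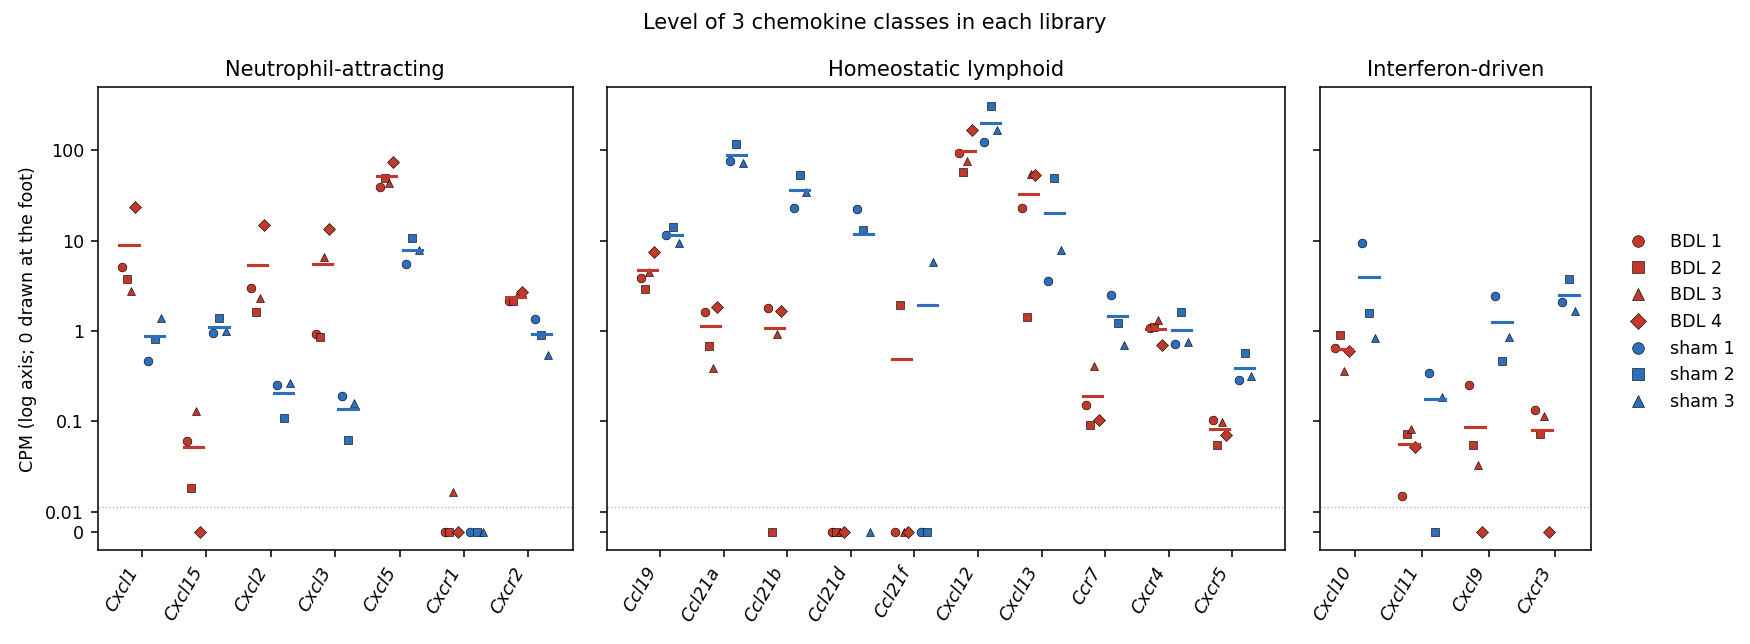
CPM (log axis) of the neutrophil-attracting, homeostatic lymphoid and interferon-driven members in each library, with BDL in red at the left and sham in blue at the right of each gene, group means as bars and libraries without a count drawn at the foot. Cxcl1, Cxcl2, Cxcl3, Cxcl5 and Cxcr2 lay higher in every BDL library, whereas Ccl19, Ccl21a, Ccr7, Cxcr5 and Cxcr3 lay lower in every BDL library.

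The ligands of CCR2, the receptor that brings monocytes out of bone marrow and into tissue, went in opposite directions. Ccl2, the main monocyte attractant, was at 3.48, 8.98, 12.4 and 25.3 CPM in BDL, against 2.54, 2.41 and 1.02 CPM in sham. It rose by 2.25 on the log2 scale (SE 0.54, adjusted p = 0.0249), though BDL replicate 1 was close to the sham libraries. The call ended without BDL replicate 2, sham replicate 1 or sham replicate 3 (adjusted p = 0.0995, 0.114 and 0.0835, range 1.62e-05 to 0.114). Its neighbour Ccl7 was at 3.07, 10.3, 10.8 and 27.8 CPM in BDL and at 2.83, 3.34 and 0.751 CPM in sham, and the groups overlapped (log2 fold change 2.11, SE 0.72, adjusted p = 0.0745). Ccl8, made by tissue macrophages, was the other way round at 4.46, 3.54, 7.57 and 5.73 CPM in BDL, against 29.0, 63.9 and 19.8 CPM in sham. It fell by 2.91 on the log2 scale (SE 0.47, adjusted p = 0.0057), and passed without each library in turn. Ccl12 was at 1.08 to 4.27 CPM in BDL and 1.42 to 6.20 CPM in sham and did not pass (-0.87, SE 0.48). With Ccl11 these 4 genes form a cluster on chromosome 11 (GRCm39), from Ccl2 at chr11:81926397-81928279 to Ccl8 at chr11:82006007-82007625.

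Ccr2 itself was at 5.03, 5.90, 6.40 and 10.2 CPM in BDL, against 46.7, 54.4 and 23.6 CPM in sham, with no overlap (log2 fold change -2.70, SE 0.32, adjusted p = 0.0019). Ccr3, the eosinophil receptor, had 0, 0, 9 and 0 counts in BDL and 116, 312 and 4 counts in sham. Sham replicate 3 overlapped the BDL libraries, and the Ccr3 call (log2 fold change -6.61, SE 1.74, adjusted p = 0.0331) was lost without any BDL library or sham replicate 1 (highest adjusted p = 0.107, lowest over the alternatives 0.000166). Ccr1, a receptor of neutrophils and macrophages, did not pass (0.50, SE 0.47, adjusted p = 0.471) and was at 9.30 to 20.2 CPM in BDL and 4.86 to 15.6 CPM in sham. The 8 monocyte and macrophage markers summed to between 303 and 423 CPM in BDL and between 591 and 1500 CPM in sham, with 3 of 8 lower in the test. Their part in the receptor levels was not tested.

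The ligands of CCR1 and CCR3 included Ccl6 and Ccl11, the highest ligands per kb in BDL. Ccl6 was at between 106 and 306 CPM in BDL and at 125, 261 and 63.6 CPM in sham. Ccl9, a related myeloid chemokine, was at 47.0, 45.0, 118 and 101 CPM in BDL and at 25.1, 75.3 and 23.3 CPM in sham. Both varied more within each group than between the groups, with log2 fold changes of 0.06 (SE 0.57) and 0.69 (SE 0.59). In both, sham replicate 2 was the highest sham library and BDL replicates 3 and 4 the highest BDL libraries, and both passed as higher without sham replicate 2 (adjusted p = 0.0315 and 0.0286). Ccl11, or eotaxin, was at 40.8, 43.1, 76.5 and 108 CPM in BDL and at 24.7, 75.0 and 40.3 CPM in sham (0.37, SE 0.53). Ccl5, which is rich in T and NK cells, was at 0.0753, 0.0550, 0.411 and 0.141 CPM in BDL, against 1.96, 2.98 and 1.53 CPM in sham. It was the only one of the 7 tested ligands of these receptors to pass, and it passed without each library in turn.

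The homeostatic lymphoid class was lower in BDL for most members. It had 10 tested members, of which 6 fell and none rose in edgeR's test, with none higher at an unadjusted p under 0.05 or in DESeq2. With the 4 Ccl21 copies counted as 1 summed gene, 4 members of the class fell and 18 chemokine members in all. The count that fell was 3, 3 and 2 without BDL replicate 1, BDL replicate 2 and sham replicate 1. Their median log2 fold change was -1.84. The largest differences were in Ccl21, the ligand that lymphatic vessels use to draw in dendritic cells and T cells bearing CCR7. The mouse genome carries several near-identical Ccl21 copies on chromosome 4, so their counts have to be read together. In a search of all stretches of 31 bases in their transcripts, 100% of those of Ccl21b were found in Ccl21d and 100% of those of Ccl21f in Ccl21b, whereas 62.6% of those of Ccl21a were in Ccl21b. Over the 402 coding bases Ccl21b, Ccl21d and Ccl21f differed from Ccl21a by T84A and C194T, with positions counted from the first base of the start codon and the base of Ccl21a given first. The 30 bases from coding base 180 onward (GENCODE, GRCm39, minus strand for Ccl21a and plus strand for the other copies) are shown because they hold C194T, in capitals, a base that tells Ccl21a from the other copies.
Ccl21a: ggcaatcctgttctCaccccggaagcactc
Ccl21b: ggcaatcctgttctTaccccggaagcactc
Ccl21d: ggcaatcctgttctTaccccggaagcactc
Ccl21f: ggcaatcctgttctTaccccggaagcactc

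Ccl21a (chr4:42772859-42773995, GRCm39) was at 1.61, 0.678, 0.395 and 1.86 CPM in BDL, against 75.8, 117 and 72.6 CPM in sham, and every BDL library was far below every sham library. Ccl21b was at 1.79, 0, 0.938 and 1.65 CPM in BDL, against 22.8, 53.1 and 34.8 CPM in sham (log2 fold change -5.04, SE 1.13, adjusted p = 0.0187). The counts of the near-identical copies shifted from one copy to another between libraries. Ccl21d had no count in BDL or in sham replicate 3 and 2027 counts in the other sham libraries, whereas Ccl21f had counts only in BDL replicate 2, where Ccl21b was at 0, and in sham replicate 3. With 0 counts in BDL, Ccl21d was at least 1050-fold lower (floor of 3 counts over the group), but 1 sham library was also at 0 and its call was lost without any BDL library or sham replicate 1 (highest adjusted p = 0.156, lowest 3.25e-06). Ccl21f did not pass (-1.50, SE 2.56), and the call of Ccl21b ended without any sham library (adjusted p = 0.0553 to 0.0733, lowest over the alternatives 7.87e-06).

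Summed over the 4 copies, Ccl21 had 226, 144, 81 and 200 counts in BDL, against 6295, 11826 and 4218 counts in sham. This was 2.72 ± 1.0 CPM in BDL (SD, n = 4) and 139 ± 38.7 CPM in sham (SD, n = 3). The log2 fold change of the sum was -5.63 (SE 0.38, adjusted p = 0.000337), and it passed without each library in turn (-5.90 to -5.45, adjusted p = 0.000664 to 0.00669). The sum was fitted after seeing how counts shifted between the copies. Ccl21a made up 47.3%, 25.7%, 29.6% and 53.0% of the sum in BDL replicates 1 to 4 and 62.5%, 63.9% and 64.2% in sham replicates 1 to 3.

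**Figure D5:**
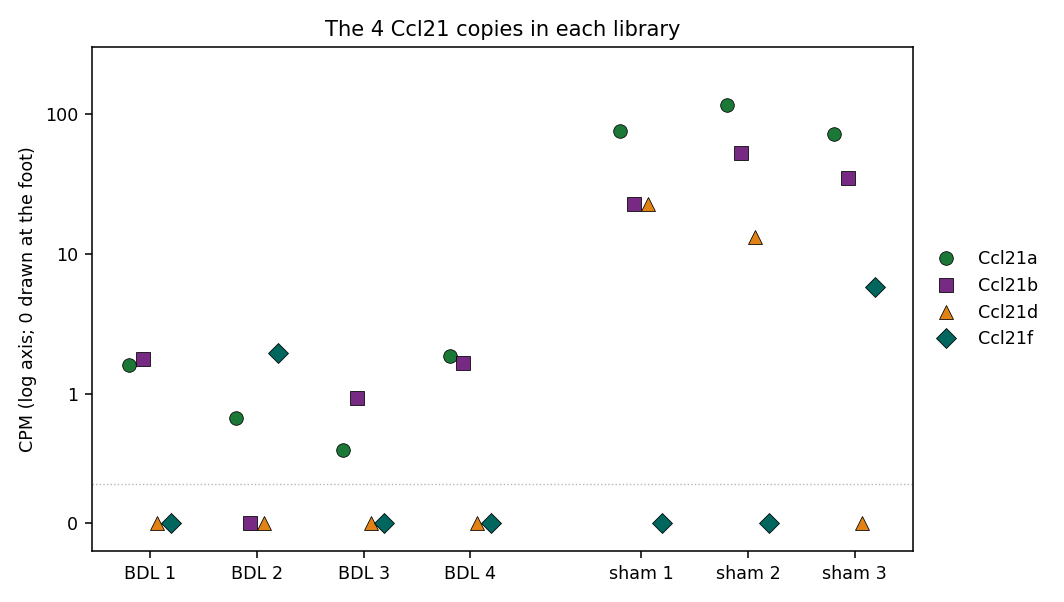
CPM (log axis) of the 4 Ccl21 copies in each library, BDL at the left and sham at the right, with a copy that had no count drawn at the foot. Ccl21a lay between 0.395 and 1.86 CPM in BDL and between 72.6 and 117 CPM in sham, while the counts of Ccl21b, Ccl21d and Ccl21f shifted between copies from library to library.

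Ccl19, the other CCR7 ligand, made by stromal cells of lymphoid tissue, was at 3.84, 2.93, 4.53 and 7.5 CPM in BDL, against 11.7, 14.1 and 9.34 CPM in sham. It fell by 1.47 on the log2 scale (SE 0.32, adjusted p = 0.0174), a smaller step than that of Ccl21, and missed the threshold without BDL replicate 1 or 2 (adjusted p = 0.0641 and 0.0627, range 3.49e-05 to 0.0806). Ccr7, carried by naive T cells and mature dendritic cells, was at 0.151, 0.0917, 0.411 and 0.105 CPM in BDL, against 2.48, 1.24 and 0.698 CPM in sham. It fell by 3.09 on the log2 scale (SE 0.58, adjusted p = 0.0101), with sham replicate 1 the highest, and did not pass without that library (adjusted p = 0.0751, range 1.32e-05 to 0.0751). Ackr4, the atypical receptor that clears CCL19, CCL21 and CCL25, was at 3.64, 2.25, 2.39 and 3.25 CPM in BDL, against 16.9, 19.1 and 18.7 CPM in sham. It fell by 2.64 on the log2 scale (SE 0.25, adjusted p = 0.000834), and passed without each library in turn. Exons of Acad11 on the other strand cover 20.3% of its exons.

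Cxcl12, the stromal ligand that retains CXCR4-bearing cells, was the most abundant member of the class in CPM. It was at 93.5, 57.5, 75.8 and 169 CPM in BDL and at 125, 310.0 and 167 CPM in sham, the groups overlapped and the test was not passed (log2 fold change -1.06, SE 0.49, adjusted p = 0.158). Cxcl13, which gathers B cells into follicles through CXCR5, ranged from 1.43 to 54.8 CPM in BDL and from 3.60 to 50.0 CPM in sham (0.14, SE 1.61). Both groups thus held low and high libraries for Cxcl13. Cxcr4 was at 0.703 to 1.33 CPM in BDL and 0.713 to 1.63 CPM in sham (0.12, SE 0.47). Cxcr5 was at 0.105, 0.0550, 0.0987 and 0.0703 CPM in BDL, against 0.289, 0.575 and 0.322 CPM in sham, and its call (-2.17, SE 0.64, adjusted p = 0.0487) was lost without any single library (highest adjusted p = 0.209, lowest 0.0253).

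Marker lists of cells that make or answer these chemokines moved both ways. The 6 fibroblast markers summed to between 9600 and 12300 CPM in BDL and between 4910 and 8320 CPM in sham, with the collagens Col1a1, Col1a2 and Col3a1 higher and Dcn lower in the test. The 6 lymphoid stroma markers summed to between 148 and 208 CPM in BDL and between 214 and 248 CPM in sham, with 1 lower (Grem1). Most of that sum was Mfge8, at 140 to 197 CPM in BDL and 198 to 231 CPM in sham, which did not pass (-0.25, SE 0.18). In 3 genes of the list every sham library was above every BDL library, and in 1 (Bst1) every BDL library was above every sham library. The 6 lymphatic endothelium markers summed to between 111 and 182 CPM in BDL and between 221 and 372 CPM in sham, with 3 lower (Flt4, Reln and Mmrn1) and Pdpn higher. The B and plasma cell markers summed to between 1.43 and 2.89 CPM in BDL and between 24.7 and 112 CPM in sham, and the dendritic cell markers, which include the members Xcr1 and Ccr7, to between 7.5 and 10.4 CPM in BDL and between 29.8 and 42.2 CPM in sham. Their part in the levels of the class was not tested. Of 6 tested genes of the lymphotoxin axis, which maintains lymphoid stroma, the ligand gene Ltb fell (-3.36, SE 0.45), the B cell survival factor Tnfsf13b fell (-1.87, SE 0.33) and the receptor Ltbr rose (0.71, SE 0.18). The calls of Tnfsf13b (adjusted p = 0.0583 without sham replicate 1) and Ltbr (adjusted p = 0.0752 to 0.0914 without BDL replicate 1, BDL replicate 2, sham replicate 2 or sham replicate 3) did not hold without each library. Fdcsp, a follicular dendritic cell gene, had no count in any library.

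Interferon-driven chemokines were low in BDL, but their ligands did not pass the test. Interferon acts on these genes through short response elements. Their core GAAANNGAA was found on either strand in 8 of the 46 member promoters and in 2342 of 32851 promoters in the table (7.13%). The 8 were those of Cxcl9 and Cxcl10, which belong to the interferon-driven class, and of Ccl1, Ccl3, Ccl19, Cxcl14, Ccr2 and Cxcr1, which do not. The Cxcl10 promoter is shown because it holds this core and the kappaB core without overlap, starting at positions -213 and -158 from the start site. The run is chr5:92348890-92349109 (GRCm38.p6, minus strand), the 220 bases before the start site, with both cores in capitals (the kappaB core as its reverse complement).
Cxcl10: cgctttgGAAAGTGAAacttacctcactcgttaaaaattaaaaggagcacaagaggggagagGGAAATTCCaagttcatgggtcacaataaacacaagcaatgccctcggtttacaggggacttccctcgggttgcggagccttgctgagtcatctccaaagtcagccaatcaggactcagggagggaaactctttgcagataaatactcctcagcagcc

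Cxcl10 was at 0.647, 0.898, 0.362 and 0.597 CPM in BDL, against 9.48, 1.57 and 0.832 CPM in sham. Sham replicate 1 was far above the other sham libraries and sham replicate 3 overlapped the BDL libraries (log2 fold change -2.27, SE 0.82, adjusted p = 0.0888, range over the alternatives 0.00541 to 0.486). Cxcl9 was at 0.256, 0.0550, 0.0329 and 0 CPM in BDL, against 2.43, 0.466 and 0.859 CPM in sham, with sham replicate 1 again the highest. The groups did not overlap, and the test was narrowly missed (-3.90, SE 1.23, adjusted p = 0.0589, range 0.00113 to 0.264). Cxcl11 was at no more than 0.347 CPM in any library (-1.61, SE 1.24). Their receptor Cxcr3, carried by activated T and NK cells, was at 0.135, 0.0733, 0.115 and 0 CPM in BDL, against 2.12, 3.75 and 1.69 CPM in sham. It fell by 4.85 on the log2 scale (SE 0.83, adjusted p = 0.00708), and it was the 1 of 4 tested members of the class to pass (median of the class -3.08). Of the 3 ligands 2 were lower at an unadjusted p under 0.05. Without BDL replicate 1 the count for the class was 2 and without sham replicate 1 it was 0 (Cxcr3 adjusted p = 0.0522, range 3.59e-11 to 0.0522), whereas DESeq2 and limma-voom each called 3.

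Genes that transmit the interferon signal were lower as a group. In the test 6 of 6 factors were lower, against 11.0% of all tested genes, with a median log2 fold change of -1.62. Irf1, which switches on Cxcl9 and Cxcl10, fell by 1.71 on the log2 scale (SE 0.22, adjusted p = 0.00263), and Irf9 by 1.54 (SE 0.25). Ifng, the cytokine itself, had no count in BDL and 34 counts in sham, which is at least 17.6-fold lower. The Ifng call (adjusted p = 0.03) was lost without sham replicate 1, 2 or 3 or BDL replicate 1 or 2 (adjusted p = 0.0555 to 0.146). The 8 T and NK cell markers, a source of Ifng, had 7 of 8 lower, with Ncr1 at 0 in BDL. Their part in the interferon-driven levels was not tested.

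The chemokines of epithelial surfaces split. Cxcl17, a mucosal chemokine, was at 4.31, 2.31, 7.19 and 5.80 CPM in BDL, against 0.539, 1.29 and 0.671 CPM in sham. It rose by 2.41 on the log2 scale (SE 0.55, adjusted p = 0.0201) without overlap, and missed the threshold without BDL replicate 1, sham replicate 1 or sham replicate 3 (adjusted p = 0.0821, 0.0661 and 0.071, range 7.35e-06 to 0.0821). Cxcl14, a constitutive epithelial and stromal chemokine, was also higher in every BDL library at 7.11, 5.54, 18.3 and 16.8 CPM, against 1.46, 4.41 and 4.13 CPM in sham, but did not pass (1.57, SE 0.65, adjusted p = 0.124). Ccl28, which draws IgA plasma cells to mucosa, was at 14.1, 8.95, 16.3 and 9.38 CPM in BDL, against 21.9, 33.2 and 29.8 CPM in sham. It fell by 1.19 on the log2 scale (SE 0.28, adjusted p = 0.0236) and missed the threshold without BDL replicate 1, BDL replicate 2, sham replicate 2 or sham replicate 3 (adjusted p = 0.0652, 0.0654, 0.0714 and 0.068, range 0.00024 to 0.0714). Ccl27a, a skin-homing chemokine, was at 1.43 to 2.44 CPM in BDL and 4.78 to 5.41 CPM in sham (-1.45, SE 0.29, adjusted p = 0.0123), with a call that ended without BDL replicate 1 or 2 (adjusted p = 0.0506 and 0.0512, range 5.39e-06 to 0.0517). It shares 40.6% of its stretches of 31 bases with the copy Ccl27al, which was at no more than 0.357 CPM.

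The chemokines tethered to the cell membrane did not pass the test, and both their receptors fell. Whether ligand and receptor differed was not tested. Cx3cl1, or fractalkine, was at 75.9, 89.0, 53.9 and 51.1 CPM in BDL and at 130.0, 99.7 and 94.3 CPM in sham, below sham in every BDL library but not past the test (-0.68, SE 0.23, adjusted p = 0.0747). Its receptor Cx3cr1, carried by monocytes and macrophages, was at 2.06, 1.15, 1.27 and 2.67 CPM in BDL, against 4.97, 7.96 and 4.53 CPM in sham. It fell by 1.71 on the log2 scale (SE 0.42, adjusted p = 0.0259) and missed the threshold without BDL replicate 1, BDL replicate 2, sham replicate 1, sham replicate 2 or sham replicate 3 (adjusted p = 0.0684, 0.0793, 0.0675, 0.0717 and 0.052, range 0.0002 to 0.0952). Cxcl16, which also takes up oxidised lipoprotein, was at 79.8, 59.0, 28.1 and 61.2 CPM in BDL and at 58.3, 61.3 and 47.8 CPM in sham (0.05, SE 0.30). Exons of Med11 and Zmynd15 on the other strand cover 43.2% and 41.6% of its exons, and reads of the pair cannot be told apart. Its receptor Cxcr6, found on tissue-resident T and NKT cells, was at 0.151, 0.128, 0.0823 and 0 CPM in BDL, against 8.44, 9.60 and 3.92 CPM in sham. It fell by 6.34 on the log2 scale (SE 0.82, adjusted p = 0.00259) and passed without each library in turn.

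The XC pair was close to absent in BDL. Xcl1, made by NK and CD8 T cells, had no count in BDL and 15, 16 and 2 counts in sham, at least 17.1-fold lower. Its receptor Xcr1, which marks cross-presenting dendritic cells, had 2 counts in BDL, both in replicate 1, and 75, 87 and 42 counts in sham. The ratio of sham to BDL for Xcr1 was 159 per unit of depth (95% exact interval 43.3 to 1320, counting error only). Xcr1 passed without each library in turn (adjusted p = 0.00297), whereas Xcl1 (adjusted p = 0.0431) lost its call without any single library (highest adjusted p = 0.139, lowest over the alternatives 0.00894). Both lay below sham in every BDL library.

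The order of the receptors differed between the groups. In BDL the highest was Ccr1 at 5.14 ± 1.82 CPM per kb, followed by Ackr3 at 2.47 ± 0.898 and Ackr1 at 2.06 ± 1.30 CPM per kb (SD, n = 4), of which the last 2 do not differ beyond their spread. In sham it was Ccr2 at 6.14 ± 2.37 CPM per kb, followed by Cxcr6 at 3.78 ± 1.55, Ackr1 at 3.72 ± 1.52 and Ackr3 at 3.62 ± 0.434 CPM per kb (SD, n = 3), of which the last 3 do not differ beyond their spread. Ackr3, a scavenger of CXCL12, was at 15.6, 12.6, 23.4 and 28.6 CPM in BDL and at 25.6, 32.6 and 29.7 CPM in sham and did not pass (-0.70, SE 0.27, adjusted p = 0.102). Ackr4 was the 1 atypical receptor of 4 to pass. Of the receptors of lymphocytes, Ccr6 had no count in BDL and 7, 12 and 0 counts in sham replicates 1 to 3. Over the pooled counts it was at least 9.84-fold lower (floor of 3 counts over the group). Sham replicate 3 was also at 0, the groups overlapped and the test was not passed (adjusted p = 0.117). The remaining tested ligands, Ccl3, Ccl4, Ccl17, Ccl20, Ccl22, Ccl24, Ccl25 and Ccl27al, had log2 fold changes between -3.85 and 0.64 and did not pass. The remaining tested receptors, Ccr8, Ccr9, Ccr10, Ackr1 and Ackr2, had log2 fold changes between -2.60 and -0.92 and did not pass.

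Genes upstream and downstream of the receptors were measured from lists of pathway members. Receptor signalling had 14 tested genes, and 3 rose and 7 fell (median log2 fold change -0.66). Over all tested genes 11.8% rose and 11.0% fell. Pik3cg and Pik3r5, the catalytic and regulatory subunits of the leukocyte phosphoinositide 3-kinase that chemokine receptors activate, fell by 2.65 (SE 0.21) and 2.88 (SE 0.26) on the log2 scale, and the exchange factor Vav1 fell by 1.74 (SE 0.16). The receptor kinase Grk6, which desensitises CXCR2 and CXCR4, rose by 1.21 (SE 0.18). Of 10 tested genes of NF-kappaB signalling and chemokine mRNA decay, none passed in edgeR's test (range of log2 fold changes -0.47 to 0.59, median 0.04). At an unadjusted p under 0.05, 2 were higher and 2 lower, and DESeq2 called 1 as lower. Nfkbia, the inhibitor that NF-kappaB itself induces, was at 56.7 to 77.7 CPM in BDL and 51.0 to 72.5 CPM in sham. Of 10 tested cytokines and receptors known to induce chemokines 3 rose and 1 fell. The number that fell was near the share of all tested genes (11.0%). The interleukin-1 receptor Il1r1 rose to 183, 185, 115 and 191 CPM in BDL, against 33.4, 49.8 and 34.2 CPM in sham (2.16, SE 0.24, adjusted p = 0.00144). The interleukin-17 receptor Il17ra rose by 0.92 (SE 0.15), and Il1a was at 1.91 to 3.62 CPM in BDL and 0 to 0.357 CPM in sham. The Il1a call (adjusted p = 0.0327) was lost without BDL replicate 1, 2 or 3 or sham replicate 1 or 3 (adjusted p = 0.0509 to 0.0906). Il17a had no count in any library.

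Enzymes that trim or shed chemokines and relatives outside the naming pattern moved both ways. Mmp8, which trims CXCL5 and other neutrophil attractants, was at 5.95, 6.21, 7.80 and 25.9 CPM in BDL, against 0.212, 0.249 and 0.537 CPM in sham (4.78, SE 0.75, adjusted p = 0.00513), and like Cxcl1 and Cxcl2 it was highest in BDL replicate 4. Dpp4, which cuts and inactivates CXCL9, CXCL10 and CXCL12, fell by 1.38 (SE 0.24, adjusted p = 0.00694). Mmp2 rose by 0.90 (SE 0.25, adjusted p = 0.0406), a call lost without BDL replicates 1, 2 or 3 or sham replicates 1 or 3 in turn (adjusted p = 0.0542 to 0.169). Adam10 and Adam17, which shed CX3CL1 and CXCL16, were at 0.14 (SE 0.18) and 0.04 (SE 0.16). Mif, a cytokine that also binds CXCR2 and CXCR4, was at 86.9, 84.4, 82.8 and 97.6 CPM in BDL, against 19.9, 31.4 and 35.8 CPM in sham (1.67, SE 0.21, adjusted p = 0.00245). Its receptor chain Cd74, also the invariant chain of antigen-presenting cells, was at 26.3, 14.8, 31.4 and 21.2 CPM in BDL, against 990.0, 724 and 503 CPM in sham (-5.03, SE 0.32, adjusted p = 0.00031). Ccrl2, which binds chemerin, fell by 1.57 (SE 0.29).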

How the data were processed

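Whole-duct RNA libraries were made with the SMART-Seq mRNA kit, an unstranded kit, and a gene's count can include reads of a gene overlapping it on the other strand. The authors quantified reads with Salmon (version not given in the sources used here) on GRCm39 and deposited estimated counts per gene, rounded to integers and without normalization. Its sharing of reads between near-identical genes affects Ccl21a, Ccl21b, Ccl21d, Ccl21f and Ccl27a. Symbols, coordinates and exon lengths came from GENCODE mouse annotation of the same build, which matched 55563 of 56065 identifiers, and the other 502 held 0.0335% of counts. The symbol pattern also matched 5 genes that are not protein-coding, which were left out. Groups and sex came from the labels, and replicate numbers only name libraries.

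Genes with at least 10 counts in total were fitted with edgeR 4.0.16 in R 4.3.3 by its quasi-likelihood F test, after TMM scaling and with terms for sex and surgery, leaving 4 residual degrees of freedom. P-values were adjusted by Benjamini-Hochberg over all 25209 genes, with a threshold of 0.05, and are edgeR's where no tool is given. SEs were obtained by dividing the size of the log2 fold change by the root of the F statistic. Ranges of adjusted p over the alternatives leave out the test against 2-fold. CPM uses TMM-scaled totals. A group at 0 was set at a floor of 3 counts over the group, and intervals are exact at 95%. Both cover counting error only, since reads carried no molecular identifiers. Alternatives were RLE and upper quartile scaling, acinar and hepatocyte markers left out of the totals, no filter, filterByExpr, DESeq2 1.42.0, limma-voom (limma 3.58.1), a test against 2-fold (glmTreat), no sex term, each library left out, and BDL replicates 1 and 4 or 2 and 3 left out. The sum of the Ccl21 copies was added after seeing the data.

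The members, gene lists and tests were chosen with earlier results of these data known. Named were all members past the threshold, all members of the 3 classes, members with a mean of at least 10 CPM in a group, and up to 4 called genes of each pathway list by smallest p. Of these, 2 genes are counted but not reported here by name or drawn. Other genes named by value, such as Ccl12, Ccr6, Ppbp, Nfkbia, Adam10 and Adam17, were chosen after their values were seen. Promoter sequences were from RefSeq (GRCm38.p6).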

Additional observations from a re-analysis of the deposited data

Results flagged for a closer look

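Single libraries stood apart in the BDL group for 7 members. The measure was the gap from the extreme library to its nearest neighbour over the whole range of the 4 BDL libraries. It was compared with Dixon's 95% critical value for 4 samples, which chance passes in about 1 in 20 groups, and 55 members with some spread in BDL were examined. BDL replicate 4 was the high library for Cxcl1 (0.889), Cxcl2 (0.896), Ccl3 (0.85) and Ccl4 (0.944), the last of these at 0.914 CPM against 0.120 to 0.165 CPM in the other BDL libraries. BDL replicate 2 was the only BDL library with counts for Ccl21f (1.0), BDL replicate 1 the only one for Xcr1 (1.0) and BDL replicate 3 the only one for Ccr3 (1.0). For Ccl21f, Xcr1 and Ccr3 the measure had to be 1.0, since every other BDL library was at 0. The critical value therefore says nothing about them. BDL replicate 4 was the highest BDL library for 24 of the 55 members and sham replicate 2 the highest sham library for 36 of 58.

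The eosinophil attractant Ccl24 moved in opposite directions in the sexes. The log2 ratio of the BDL mean to the sham mean was 0.83 in females (3.41 and 4.15 CPM in BDL, 2.12 CPM in sham) and -3.0 in males (0.662 and 0.568 CPM in BDL, 6.32 and 3.49 CPM in sham). This difference between the sexes was not tested, and females had 1 sham library.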

How the results depend on the processing

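None of the 26 calls reversed under any alternative, and 9 passed under all of them other than the test against 2-fold, which 12 passed. RLE scaling and leaving acinar and hepatocyte markers out of the totals lost and gained no call. The test against 2-fold left 3 members higher, 9 lower and 2 homeostatic lymphoid members lower. Over all tested genes it left 602 higher and 758 lower. For the interferon-driven class, 3 members were lower with DESeq2, limma-voom, no filter on low counts or no sex term, and 2 with filterByExpr or without BDL replicates 1 and 4. Without BDL replicates 2 and 3, the homeostatic lymphoid count was 3. DESeq2 called all 26 and 12 more, among them Cxcl1, Ccl7, Cxcl9, Cxcl10 and Cxcl12, giving 9 members higher and 29 lower. Of all 25209 tested genes it called 3844 higher and 4178 lower. With single libraries left out, members higher ranged from 2 to 8 and members lower from 11 to 18. Over all tested genes the same ranges were 1678 to 3152 higher and 1431 to 2883 lower. By class, 2 to 5 neutrophil-attracting members were higher, 2 to 5 homeostatic lymphoid members lower and 0 to 2 interferon-driven members lower.

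Members that did not pass changed sign under some settings, and the causes were not tested. Upper quartile scaling, which moved the median of all genes to -0.13, gave -0.04 for Ccl6 and -0.08 for Cxcl16. Without a sex term Ccl20 was at 0.17. Without BDL replicates 1 and 4, Cxcl13 was at -0.32 and Cxcl16 at -0.38, and without BDL replicates 2 and 3, Ccl20 was at 0.31, Ccl27al at 0.25 and Cxcr4 at -0.09. With single libraries left out, the ranges were -0.57 to 0.94 for Ccl6, -0.1 to 1.49 for Ccl9, -0.46 to 0.85 for Ccl11, -1.8 to 0.34 for Ccl20, -2.29 to 0.04 for Ccl27al, -8.65 to 7.87 for Ccl21f, -1.24 to 1.92 for Cxcl13, -0.15 to 0.35 for Cxcl16 and -0.13 to 0.5 for Cxcr4. No paired analysis was possible because the labels give the groups no shared replicate numbers. With 3 and 4 libraries a group, differences of members under about 1 CPM rest on few counts.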
